A study of Mus musculus and Rattus norvegicus with 80 samples.

Results

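LINE-1 (L1) elements are retrotransposons, which copy themselves through an RNA that is transcribed from a promoter at the start of the element and ends in a poly(A) tail. Most full-length L1 copies in the mouse genome no longer encode working proteins and are called non-intact, yet such a copy can still be transcribed. Testis holds the male germ line, in which L1 copies are under tight epigenetic control, so the level of single copies there is of interest. The 3 loci described here, UID-5948, UID-4732 and UID-13740 (names from the L1Base 2 database), are non-intact full-length elements, 3 of 17019 different L1 loci annotated in mouse. They were chosen by their measured level, after earlier results of these data had singled them out in 7.6 mo testes. Over all 12 testes they are also the non-intact loci with the highest mean level among the loci that the study listed as expressed in testis. Their level in testes, and its excess over other organs, is therefore given as a description and not as a test.

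The study prepared cytoplasmic, polyadenylated RNA from organs of C57BL/6 mice, for which the labels name no mutation or treatment, and sequenced strand-specific paired-end libraries. The male groups used here were testes and livers of 1.9-3.6 mo (ages 1.9 and 3.6 mo), 7.6 mo, 12.8 mo and 22.3 mo, with 3 mice each, brains of 7.6 and 12.8 mo with 3 mice each, and lungs of 7.6 mo (2 mice) and 12.8 mo (3 mice). The female groups were 9 ovaries, 9 brains, 9 lungs and 6 uteri in 3 age groups (2.2-3.2 mo, then 8-8.7 mo, then 16.5 mo). Each mouse gave 1 library per organ, so each of the 68 libraries is a separate organ sample, but organs of the same number share a mouse. The piece dissected from each organ was small and held mixed cells, and in such bulk samples fewer cells of a type and less RNA per cell cannot be told apart. The testis libraries carry the label "repro" and come from males. The count files used here hold L1 loci only, so no organ was checked against marker genes.

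The unit used here is FPKM as the study defined it, that is, reads on a locus per 6 kb and per M mapped reads, with both mates of a pair counted. Testis libraries had 22.6 to 43.4 M mapped reads, of which 53232 to 105042 fell on annotated L1 loci. The 56 libraries of the other organs had 8.45 to 51.4 M mapped reads and 9567 to 109959 L1 reads. A count of 3 reads, used as the floor, corresponded to an FPKM between 0.0115 and 0.0222 in testes and between 0.00973 and 0.0592 in the other libraries. This floor covers counting error only. The counting window of each of the 3 loci started 700 bp before the element and ended 1000 bp after it in 56 libraries, but reached only 300 bp before and 500 bp after it in the 12 libraries of 12.8 mo. Age and window therefore cannot be told apart in any comparison with 12.8 mo, and values per kb of window are given where they bear on one. The mapped reads behind FPKM were less certain in the 12.8 mo lungs, where 8 of 19, 9 of 22 and 8 of 22 listed loci coincided on a value. In the 22.3 mo testes of mice 830 and 831, 31 of 300 and 31 of 305 loci coincided with the column of their number. With the column of the other mouse 309 and 308 did, so the mapped reads by number are poorly borne out for these mice. Values by number are kept as the main ones, and FPKM joined by counts is given beside them. Livers had few listed loci, such as 1 of 3 coinciding in mouse 900 at 12.8 mo and 1 of 1 in mouse 1110.

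All 3 loci lie on the plus strand of mm10. UID-5948 spans 44824843 to 44829280 on chromosome 3 (4438 bp). In the GENCODE M21 annotation it overlaps no gene. The nearest annotated gene is the processed pseudogene Gm37597 at 106330 bp upstream, and the nearest protein-coding gene is Pcdh10, a protocadherin, 549118 bp downstream. UID-13740 spans 27735305 to 27740008 on chromosome 11 (4704 bp) and also overlaps no gene. Its nearest annotated gene is the processed pseudogene Gm12079 at 143104 bp downstream, and the nearest protein-coding gene, Gm6685, starts 599096 bp downstream. No annotated exon falls into the counting window of either locus.

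UID-4732 has a different surrounding. It spans 32464026 to 32468940 on chromosome 18 (4915 bp), 28289 bp downstream of Bin1, a membrane-curving protein gene on the same strand. The element lies in an intron of Gm44577, a long noncoding RNA transcribed in the same direction (32462579 to 32509064), and in an intron of Gm35060, which is transcribed in the opposite direction (32458083 to 32472589). No annotated exon overlaps the element itself. One exon of Gm44577 (32469432 to 32469689, 258 bp) begins 492 bp after the end of the element. That exon lies whole inside the longer counting window and contributes 9 bp to the shorter window of 12.8 mo. Since Gm44577 has the strand of the element, a read on this exon counts towards UID-4732.

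UID-5948 was the locus with the highest mean among the 468 loci of the study's testis list, with 2.22 ± 0.673 FPKM (SD, 12 testes). In 1.9-3.6 mo testes its FPKM was 1.70, 1.66 and 2.05, from 442, 418 and 398 reads. In 7.6 mo testes it was 3.05, 2.25 and 2.00, from 688, 448 and 348 reads. At 12.8 mo the values were 3.23, 2.11 and 3.52, from 503, 285 and 578 reads. At 22.3 mo they were 1.57, 1.80 and 1.67, from 354, 444 and 368 reads. Every testis thus had at least 285 reads in the counting window of this element. With mapped reads taken by mouse number, all 3 testes of 22.3 mo were below every testis of 7.6 and of 12.8 mo. The 1.9-3.6 mo values overlapped those of 7.6 mo. With the mapped reads of 22.3 mo testes joined by counts, mice 830 and 831 had 2.02 and 1.49 FPKM. Of their listed loci, 309 and 308 coincided under this join, against 31 and 31 by number. The 22.3 mo testes then lay further apart, and that of mouse 830 was just above the lowest of 7.6 mo.

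UID-13740 had a mean of 1.33 ± 0.353 FPKM (SD, 12 testes), rank 3 on the list. Its FPKM was 1.05, 0.925 and 1.05 in 1.9-3.6 mo testes, from 274, 233 and 204 reads. In 7.6 mo testes it was 1.36, 1.53 and 0.873, from 306, 306 and 152 reads. The 12.8 mo testes had 1.55, 1.54 and 1.96 FPKM, from 241, 208 and 322 reads. The 22.3 mo testes had 1.82, 1.22 and 1.08 FPKM, from 412, 302 and 238 reads. With mapped reads joined by counts, those of mice 830 and 831 had 1.37 and 0.964 FPKM. The 12.8 mo values were above all 3 values of 1.9-3.6 mo and overlapped those of 22.3 mo, whose highest testis (mouse 829) stood above both others of its group.

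UID-4732, rank 4 on the list, had a mean of 1.25 ± 0.325 FPKM (SD, 12 testes). Its FPKM was 0.795, 1.41 and 1.31 in 1.9-3.6 mo testes, from 207, 355 and 254 reads. In 7.6 mo testes it was 1.57, 1.20 and 1.53, from 354, 240 and 266 reads. The 12.8 mo testes had 1.41, 0.495 and 1.48 FPKM, from 219, 67 and 244 reads. The 22.3 mo testes had 1.09, 1.17 and 1.51 FPKM, from 247, 289 and 331 reads. With mapped reads joined by counts, those of mice 830 and 831 had 1.32 and 1.34 FPKM. The testis of mouse 900 at 12.8 mo, with 67 reads, was the lowest of the 12, and the values of all 4 age groups overlapped.

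**Figure D1:**
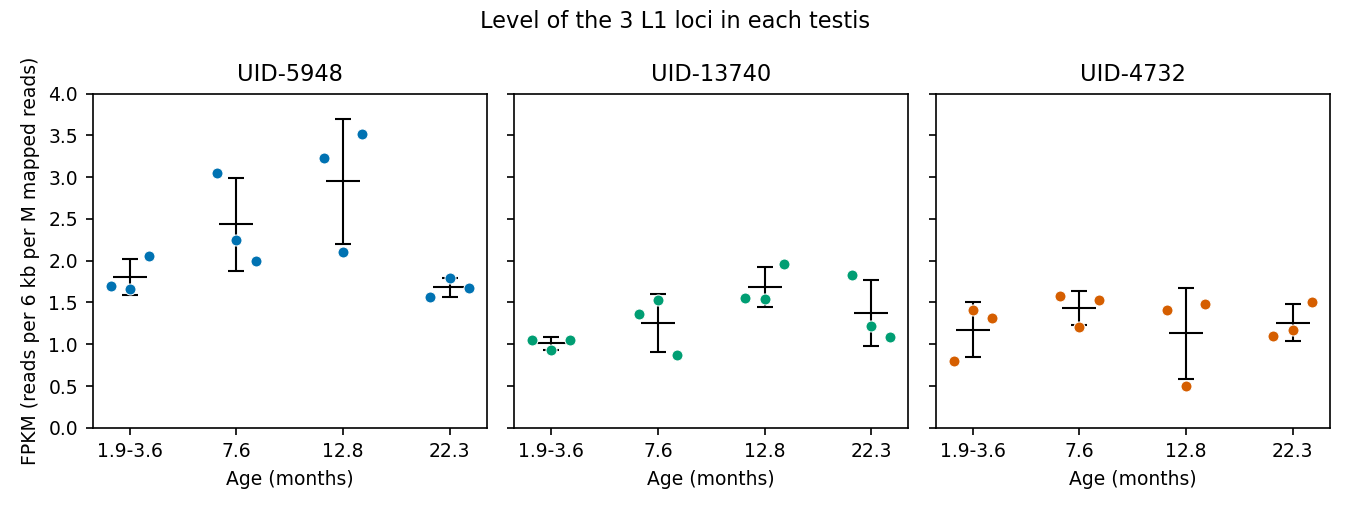
FPKM of UID-5948, UID-13740 and UID-4732 in each of 12 testes by age group (points), with the mean and SD of each group of 3 (bars). UID-5948 reached 3.52 FPKM at 12.8 mo and lay between 1.57 and 1.80 at 22.3 mo, and the low point of UID-4732 at 12.8 mo is the testis of mouse 900 (0.495 FPKM). With mapped reads joined by counts, which is not plotted, UID-5948 at 22.3 mo ran from 1.49 to 2.02 FPKM.

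Between loci the level was compared per kb of counting window. Only uniquely aligned reads were counted, so a level also depends on how much of a locus such reads can reach. Neither these values nor the ranks below were corrected for that. UID-5948 had 2.29 ± 0.844 reads per kb of window per M mapped reads (SD, 12 testes), UID-13740 had 1.31 ± 0.415 and UID-4732 had 1.17 ± 0.313. Within single testes, where the number of mapped reads cancels out, UID-5948 exceeded UID-4732 in 12 of 12 and UID-13740 in 11 of 12 testes, the exception being mouse 829. The ratio of UID-5948 to UID-4732 ran from 1.20 to 4.64 with a median of 1.85, and its ratio to UID-13740 from 0.896 to 2.39 with a median of 1.78. UID-13740 exceeded UID-4732 in 7 of 12 testes, with a ratio between 0.590 and 3.22, so these 2 neighbours in the order did not differ beyond their spread. Together the 3 loci made up 0.855% to 1.44% of all L1 reads of a testis. That share was between 1.12% and 1.44% in the 9 testes of the other ages and 1.08%, 0.855% and 1.09% in those of 12.8 mo, the age group with the highest mean FPKM of UID-5948 and UID-13740.

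The loci next to these in the testis list were the intact UID-15218 (2.05 FPKM, between UID-5948 and UID-13740) and the non-intact UID-13020 (1.18 FPKM, just below UID-4732). Among all 17019 loci, listed or not, UID-5948 ranked 13, UID-13740 ranked 22 and UID-4732 ranked 23 by mean FPKM over testes. Of the 64 loci with a mean of at least 100 reads over the 12 testes, 10 were on the testis list. The study listed loci after inspecting the positions of their reads, a step that cannot be repeated from counts.

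The variation between testes of the same age differed among the 3 loci. With mapped reads by mouse number, the SD of log2(FPKM + 0.01) within age groups was 0.27 for UID-5948 and 0.31 for UID-13740. The median over the 64 loci with at least 100 reads was 0.51. For UID-4732 it was 0.52, near that median. An SD no larger than that of UID-5948 was found at 20.3% of those 64 loci, and no larger than that of UID-13740 at 25.0%.

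The reads on the 3 loci were spread over most of the element. UID-5948 was covered over 80.6% to 94.9% of its window in the 12 testes. For UID-13740 the covered share was 75.5% to 87.6%. For UID-4732 it was 68.3% to 92.1% in 11 testes and 36.8% in that of mouse 900. The mean over testes was 86.8%, 81.0% and 77.1% in that order, beside a median of 63.0% and a range from 1.37% to 97.4% over the 64 loci with at least 100 reads. UID-15218, the listed locus with a level between UID-5948 and UID-13740, was covered over a mean of 4.47% of its window, and UID-13020 over 84.5%. How much of each window uniquely aligned reads can cover was not tested.

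In the 9 testes with the longer window, the bases covered by reads outnumbered the bases of the element for UID-5948, by 509 to 959 bp. The same held for UID-13740, by 129 to 706 bp. At least that many bases of the window outside the annotated span were therefore covered, on 1 side or both. The paper gives full-length mouse L1 elements a length above these spans. Whether the covered flank bases belong to the L1 itself was not tested. UID-4732 was covered over more bases than its element in 7 of these 9 testes, by up to 1176 bp, and over fewer in the testes of mice 1071 and 829. Of the 64 loci with at least 100 reads, 12 (18.8%) were covered beyond the length of the element in all 9 testes, UID-5948 and UID-13740 among them. Their elements, 4438 and 4704 bp, are shorter than the median of those 64 loci, 4982 bp. For UID-4732 the excess was 1097 bp in mouse 1110 and 1176 bp in mouse 831, more than the 1000 bp of window after the element. For UID-5948 at 12.8 mo it was 530 and 533 bp in mice 899 and 901, more than the 500 bp after it. Some bases before the element were therefore covered in these testes. In the other testes covered bases, given without positions, do not settle the side on which flank reads lie.

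**Figure D2:**
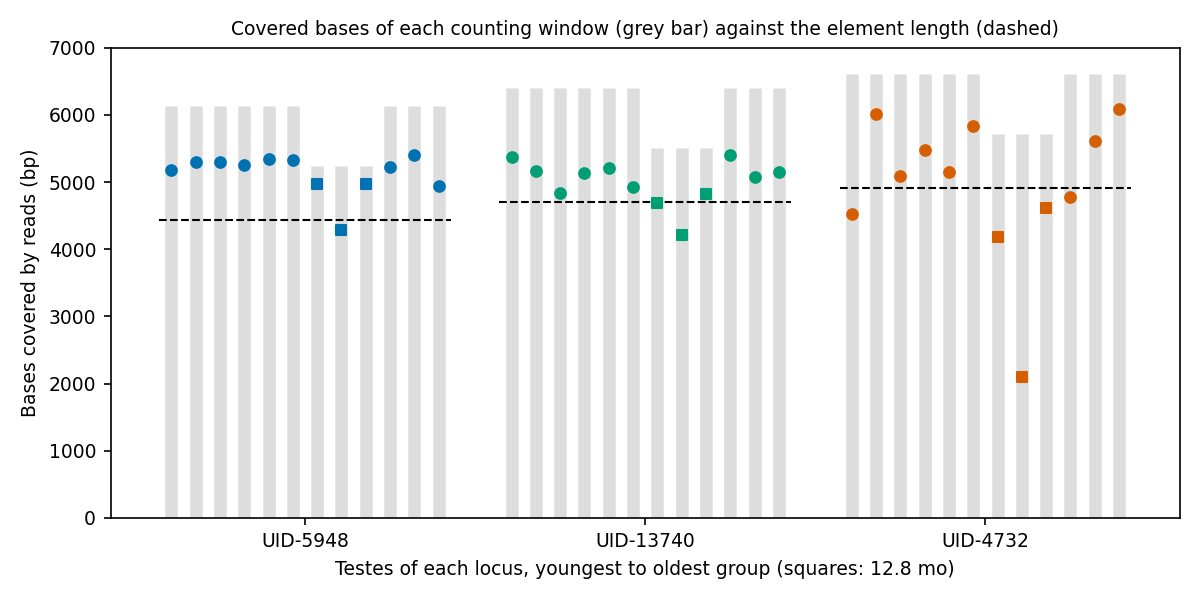
Bases covered by reads (points) in the counting window (grey bar, in bp) of each locus in each of 12 testes, ordered from the youngest to the oldest age group, with the length of the element as a dashed line. UID-5948 and UID-13740 lie above the dashed line in all 9 testes with the longer window, by 509 to 959 bp and by 129 to 706 bp, and UID-4732 drops to 2101 bp in the testis of mouse 900 at 12.8 mo (squares mark 12.8 mo).

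Differences between ages were tested on the counts of all L1 loci in 1 edgeR quasi-likelihood fit over the 12 testes, with library sizes set to mapped reads and p-values adjusted after Benjamini and Hochberg over the 1095 loci with at least 10 reads in at least 3 testes. All 3 loci passed this filter. Contrasts with 7.6 mo testes were not tested, because the results that singled out the loci were on that age. Whether the levels at the other ages also entered the choice is not known, so the other contrasts may not be independent of it. As ratios of mean FPKM, UID-5948 was 1.35-fold, UID-13740 1.24-fold and UID-4732 1.22-fold higher at 7.6 mo than at 1.9-3.6 mo. The labels do not say whether the mice of a group shared a litter, and the p-values measure the spread between these samples. The contrasts share groups, so their values are not independent of each other.

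From 1.9-3.6 to 12.8 mo, none of the 3 loci passed the threshold, while 11% of all tested loci did (101 higher and 19 lower). Among the non-intact loci alone, 36 of 1001 passed (19 higher and 17 lower), again without the 3. The number of loci passing depended on the testes included. It was 49 of 992 without the testis of mouse 899 (28 higher and 21 lower) and 47 of 981 without that of mouse 901 (24 higher and 23 lower). Without that of mouse 900 it was 135 of 1020. Each such fit also has fewer samples, and the reason for these differences was not tested. UID-5948 had a log2 fold change of 0.71 ± 0.33 (SE; edgeR, adjusted p = 0.206) and UID-13740 of 0.74 ± 0.36 (edgeR, adjusted p = 0.254). UID-4732 had -0.05 ± 0.40 (edgeR, adjusted p = 0.958). The median of all tested loci was itself 0.55, and L1 reads per M mapped reads were higher in 12.8 mo testes (2904 to 3833) than in the 9 others (1573 to 2512). The part of this shift in the result was not tested. The estimates of UID-5948 and UID-13740 were thus near that of the typical locus: 43.2% and 41.6% of loci had a higher one. Per kb of counting window the median was 0.74 and 125 of 1095 loci passed. In that fit UID-5948 had 0.94 (edgeR, adjusted p = 0.0597) and UID-13740 had 0.95 (edgeR, adjusted p = 0.0898). UID-4732 had 0.16 there (edgeR, adjusted p = 0.845). With TMM factors on total L1 reads, which moved the median to -0.03, the log2 fold changes were 0.15, 0.22 and -0.66 for UID-5948, UID-13740 and UID-4732, with adjusted p of 0.833, 0.749 and 0.175 in edgeR. Without the testis of mouse 900, UID-5948 passed the threshold (0.90, edgeR, adjusted p = 0.0333). In that fit the median of all loci was 0.77 and 135 of 1020 passed. There UID-4732 had an estimate of 0.30 in place of -0.05 (edgeR, adjusted p = 0.561).

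From 12.8 to 22.3 mo, 12.1% of the tested loci passed (22 higher and 110 lower), again without any of the 3. Among the non-intact loci alone 33 of 1001 passed (17 higher and 16 lower), and 49 of 992 and 47 of 981 passed without mouse 899 or 901. With TMM factors the split was 53 higher and 96 lower. UID-5948 had a log2 fold change of -0.81 ± 0.33 (SE; edgeR, adjusted p = 0.122), beside a median of -0.50 over all tested loci. UID-13740 had -0.29 ± 0.36 (edgeR, adjusted p = 0.70) and UID-4732 had 0.15 ± 0.40 (edgeR, adjusted p = 0.87). Per kb of counting window, UID-5948 passed the threshold with -1.04 (edgeR, adjusted p = 0.031), in a fit in which the median was -0.70 and 134 of 1095 loci passed. This scaling takes reads to be spread evenly over the element and its flanks, which was not tested. Without the testis of mouse 900 UID-5948 passed as well (-1.01, edgeR, adjusted p = 0.0162), beside a median of -0.72 and 139 of 1020 loci called. With TMM factors, which moved the median to 0.07, the estimates were -0.32 for UID-5948 (edgeR, adjusted p = 0.563) and 0.74 for UID-4732 (edgeR, adjusted p = 0.103). DESeq2 gave 0.62 for UID-4732 (adjusted p = 0.142).

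The groups of 22.3 and 1.9-3.6 mo share the same counting window. Between them 0% of the 1095 loci passed in edgeR (26 had an unadjusted p under 0.05, and DESeq2 called 1 locus). UID-5948 had a log2 fold change of -0.10 ± 0.33, UID-4732 of 0.10 ± 0.40 and UID-13740 of 0.45 ± 0.36 (SE; edgeR, each with an adjusted p of 1). The median of all tested loci was 0.05. These SEs leave room for changes of the size seen in the other contrasts, so equal levels at the youngest and the oldest age were not shown.

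**Figure D3:**
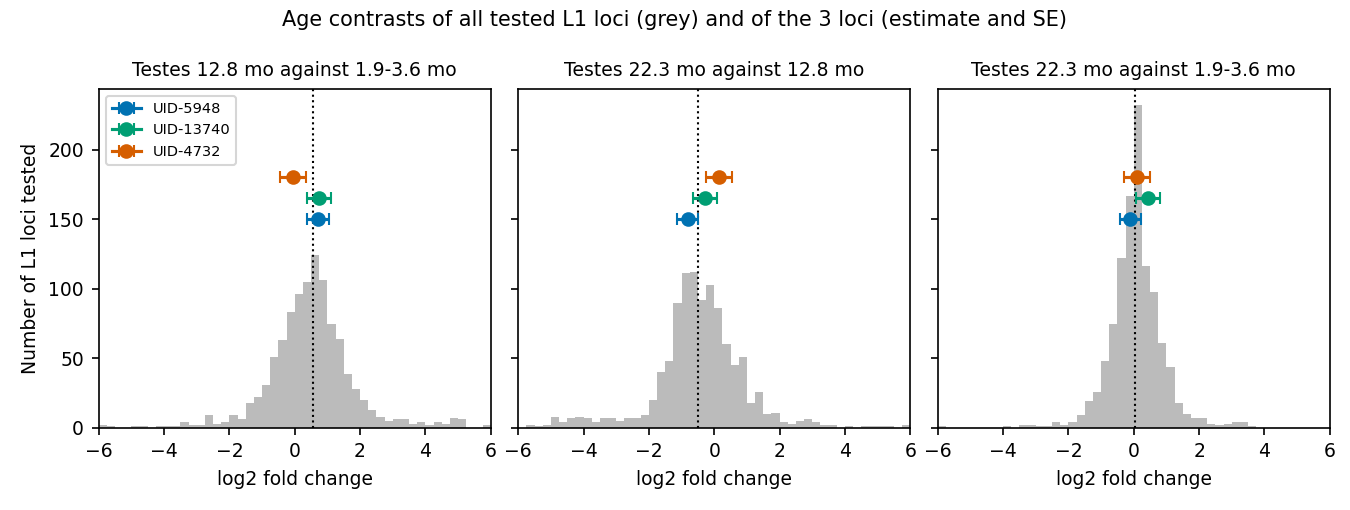
Histograms of the log2 fold change (x axis) of the 1095 tested L1 loci (y axis, number of loci) in 3 age contrasts of testes, with the median as a dotted line and the 3 loci as coloured points with their SE, placed at an arbitrary height. The points lie within the bulk of the loci, and 54, 54 and 1 loci fall beyond the plotted range (6 on either side of 0) in the 3 contrasts from left to right.

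The other 465 loci of the testis list were counted in the same contrasts. Of these, 321 passed the filter. From 1.9-3.6 to 12.8 mo, 5 rose and 3 fell, with a median log2 fold change of 0.33. From 12.8 to 22.3 mo, 4 rose and 6 fell, with a median of -0.15. Between 1.9-3.6 and 22.3 mo none passed (median 0.10). The study chose this list on these libraries, so its counts are no independent evidence.

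Outside testes, UID-5948 and UID-13740 were nearly without reads. UID-5948 had no read in 55 of 56 libraries, and the remaining one, the liver of mouse 1111, had 2 reads. UID-13740 likewise had no read in 55 of 56 libraries, and the brain of mouse 901 had 2 reads. Against the floor of 3 reads in the shallowest library of an organ, the mean of UID-5948 over testes was at least 79.5-fold higher than in livers, at least 99.6-fold higher than in male brains, at least 76.0-fold higher than in male lungs, at least 51.8-fold higher than in ovaries, at least 68.8-fold higher than in uteri, at least 84.5-fold higher than in female brains and at least 37.5-fold higher than in female lungs. For UID-13740 these bounds were, in the same order, 47.7-fold, 59.8-fold, 45.6-fold, 31.1-fold, 41.3-fold, 50.7-fold and 22.5-fold. The bounds reflect the depth of each organ and set no order among organs. Of the 64 loci with at least 100 reads in testes, 16 (25.0%) had 2 reads or fewer in the other 56 libraries together, UID-5948 and UID-13740 among them.

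UID-4732 was read in 40 of the 56 libraries outside testes, with 476 reads in all. All 9 ovaries had reads on it. In the youngest ovaries, of 2.2-3.2 mo, there were 16, 6 and 4 reads (0.0862, 0.0855 and 0.0162 FPKM). In those of 8-8.7 mo there were 53, 10, 42 and 13 reads (0.242, 0.0543, 0.229 and 0.0552 FPKM). The 2 ovaries of 16.5 mo had 28 and 48 reads (0.133 and 0.249 FPKM). The ovaries of 8-8.7 mo formed a high and a low pair, and the age groups overlapped. The mean over ovaries, 0.128 ± 0.0899 FPKM (SD, n = 9), was the highest of any organ but testis, whose mean was 9.76-fold higher. The lowest testis, 0.495 FPKM, was still 1.99-fold above the highest ovary.

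Among the male organs, brains had 12, 8 and 6 reads on UID-4732 at 7.6 mo (0.0459, 0.0374 and 0.0321 FPKM) and 16, 29 and 4 reads at 12.8 mo (0.114, 0.185 and 0.0297 FPKM). Lungs had 18 and 10 reads at 7.6 mo (0.159 and 0.0972 FPKM) and 0 reads in all 3 mice at 12.8 mo, where the windows were shorter. Livers had 0 reads in 10 of 12 mice, with 6 reads in mouse 830 at 22.3 mo and 2 reads in mouse 901 at 12.8 mo. In females, brains had 2 to 16 reads (median 4) and lungs 4 to 10 reads (median 6). Uteri had 14 and 14 reads at 16.5 mo, 6, 0 and 0 reads at 8-8.7 mo and 0 reads at 2.2-3.2 mo. The high uteri were thus those of the 2 oldest mice.

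**Figure D4:**
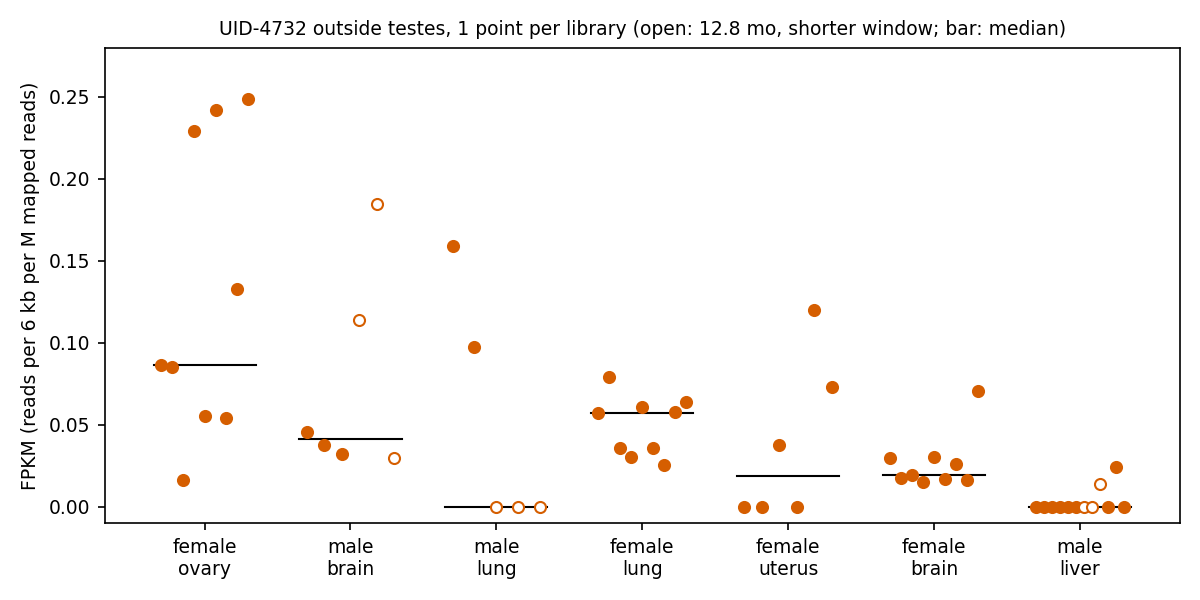
FPKM of UID-4732 in each of the 56 libraries outside testes (points, in order of age within an organ), with the median of each organ as a bar. All 9 ovaries lie between 0.0162 and 0.249 FPKM, the 2 lungs of 7.6 mo lie at 0.159 and 0.0972 FPKM, and the 3 lungs of 12.8 mo (open points, shorter window) lie at 0.

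The covered bases of UID-4732 differed between these organs. In ovaries 280 to 4018 bp of the window were covered, so that at least 22 to 3760 bp lay outside the exon of Gm44577 near the end of the window. In the ovary of mouse 1324, with 53 reads, 60.7% of the window was covered. In female brains 272 to 1602 bp and in female lungs 325 to 1023 bp were covered, and each of these libraries therefore had some bases covered outside that exon. In the 2 male lungs of 7.6 mo, by contrast, 18 and 10 reads covered only 231 and 232 bp, fewer than the 258 bp of the exon. The 3 male lungs of 12.8 mo, whose window holds 9 bp of the exon, had no read. In 12.8 mo brains, with the same short window, 305 to 767 bp were covered, of which at least 296 to 758 bp lay outside the exon. In the liver of mouse 830, 6 reads covered 200 bp, fewer than the exon holds. In that of mouse 901 at 12.8 mo, 2 reads covered 116 bp, of which at least 107 bp lay outside the exon. Whether the lung reads and those of the liver of mouse 830 lie on the exon was not tested, since positions are not given.

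The level of UID-4732 outside testes was compared between organs by two-sided exact permutation tests on the mean of log2(FPKM + 0.01). The locus was singled out in testes. Whether its level in other organs also entered the choice is not known, so these tests may not be independent of it. The other 2 loci had too few reads for such a test. Female lungs (0.0496 ± 0.0182 FPKM, SD, n = 9) were higher than female brains (0.0268 ± 0.0174 FPKM, SD, n = 9), by 0.73 on the log2 scale (exact permutation test, p = 0.00872, adjusted p = 0.0349 over 4 tests). The lung was the higher organ in 7 of 9 mice. These levels are near the floor, with a median of 6 reads in lungs and 4 reads in brains. The highest lung, that of mouse 1535, had 0.0789 FPKM from 4 reads, where 3 reads are 0.0592 FPKM. Within mice, by an exact sign-flip test with the mouse as block, the difference missed the threshold (p = 0.0156, adjusted p = 0.0625). Taken as a share of L1 reads, the difference was 0.064 (exact permutation test, p = 0.829). Total L1 reads per M mapped reads were 532 to 1259 in female lungs and 307 to 600 in female brains.

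Ovaries exceeded female lungs by 0.94 on the log2 scale (exact permutation test, p = 0.034), which missed the threshold after adjustment (adjusted p = 0.068), and the ovary was higher in 7 of 9 mice. Without the ovary of mouse 1540, the lowest, the difference was 1.20 (exact permutation test, adjusted p = 0.0135). Male lungs (0.0513 ± 0.0736 FPKM, SD, n = 5) and male brains (0.0739 ± 0.0628 FPKM, SD, n = 6) differed by -1.28 (exact permutation test, p = 0.169, adjusted p = 0.225). The sign depended on the age group, since at 7.6 mo alone lungs were higher by 1.49 (exact permutation test, p = 0.2) and at 12.8 mo all lungs were at 0. Male lungs and livers differed by 1.29 (exact permutation test, p = 0.364, the same after adjustment). Here too the sign differed between the age groups, with 3.75 at 7.6 mo only (exact permutation test, p = 0.2, the smallest that 2 lungs and 3 livers allow) and -0.41 at 12.8 mo only. Both male comparisons pool 2 windows, which hold 258 bp of the Gm44577 exon at 7.6 mo and 9 bp at 12.8 mo. Age and window therefore cannot be told apart in these signs.

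The loci whose profile was most like each of the 3 were sought by the correlation of log2(FPKM + 0.01) over all 68 libraries, among 709 loci with a mean of at least 10 reads over testes. For UID-5948 these were UID-401 on chromosome 2 (r = 0.998), UID-8317 on chromosome 8 (r = 0.998) and UID-5090 on chromosome 5 (r = 0.997), none of which had a read outside testes. For UID-13740 they were UID-5090 (r = 0.996), UID-5948 itself (r = 0.996) and UID-401 (r = 0.995). These values mainly reflect that each locus has reads in the 12 testes and almost none in the 56 other libraries. For UID-4732 they were UID-6930 on chromosome 14 (r = 0.896), UID-9278 on chromosome 1 (r = 0.878) and UID-13520 on chromosome 4 (r = 0.86). UID-6930 had reads in 29 and UID-9278 in 33 of the libraries outside testes, and UID-13520 in 4. Of these 6 other loci, UID-13520 alone is on the testis list. The points share libraries and depths, and no test was made.

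Nearby annotated L1 loci had fewer reads. The closest to UID-5948 is UID-6255, 16163 bp away on the opposite strand, with 0 to 26 reads per testis. UID-5975, 28927 bp away on the same strand, had 0 to 2 reads. The closest to UID-13740, UID-13955 at 34047 bp on the same strand, had 0 to 14 reads, and UID-14032 at 45191 bp had none. The closest to UID-4732, UID-4811 at 214590 bp on the same strand, had 0 to 4 reads, while UID-4922 at 288838 bp, also on that strand, had 12 to 42 (median 29), the highest of these 6 neighbours and below the 67 reads of UID-4732 in its lowest testis.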

How the data were processed

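Per the labels, cytoplasmic poly(A) RNA was sequenced as strand-specific paired-end libraries, on either of 2 platforms, and which library ran on which is not given. According to the methods, the authors aligned reads uniquely to mm10 with Bowtie, removed duplicates, separated strands and used bedtools over windows around L1Base 2 loci. The deposited values are read counts per locus, the number of covered bases and the covered fraction of each window. A locus listed more than once was used once.

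Mapped reads were recovered as the value on which the authors' tabulated FPKM and the deposited counts coincide for most listed loci (tolerance 1e-04), leaving out the 3 loci described. At 22.3 mo, 31 of 300 and 31 of 305 loci of the testes of mice 830 and 831 coincided with the column of their number, and 309 and 308 with the column of the other mouse. The number was kept, and joining by counts was an alternative. The 22.3 mo livers were joined by counts. In testis and liver of mouse 1110, and in brain and lung of mouse 1209, the only column whose number matched no mouse was taken as theirs, since no other column matched them.

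Counts of 12 testes were tested with edgeR 4.0.16 (quasi-likelihood, at least 10 reads in 3 testes, Benjamini-Hochberg at 0.05) in R 4.3.3, with DESeq2 1.42.0, TMM, no filter, the 6 testes compared, mapped reads joined by counts, non-intact loci only and each testis left out as alternatives. On simulated data with 200 loci changed 4-fold at 12.8 mo, 91.3% of 183 changed loci tested were called against 1.9-3.6 mo, beside 10 unchanged ones. All simulated loci had the same variation between testes, and no shift was shared by loci at 12.8 mo. The share called therefore does not apply to smaller changes, such as the estimates of the 3 loci. Organ pairs were tested for a locus with 3 or more reads in at least 2 libraries, with a pseudocount of 0.01 FPKM. Organs with the same number in the labels come from the same mouse, which pairs them. Alternatives were the mouse as block, a pseudocount of 0.1, the share of L1 reads (plus 0.001%), 12.8 mo only and each library left out. Counts per kb of window and 7.6 mo only were chosen after seeing the data. Genes are from GENCODE M21 (GRCm38, the build of mm10). Python 3.11.15, scipy 1.17.1 and matplotlib 3.10.9 were used.

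The 3 loci and the lists were chosen with earlier results of these data known. Loci are named if they are among the 3, next to one of them in the testis list, among the 3 most correlated with one, or, chosen after their values were seen, the nearest annotated L1 loci. Rat libraries and genome sequence were not used here.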

Additional observations from a re-analysis of the deposited data

How the results depend on the processing

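The counts of loci called in testes moved most when only non-intact loci were tested or when a 12.8 mo testis was left out. With only non-intact loci, 36 loci passed from 1.9-3.6 to 12.8 mo in place of 120, and 33 from 12.8 to 22.3 mo in place of 132. Leaving out each testis gave 47 to 135 and 47 to 139, the low values being those without mouse 899 (49 in both) or 901 (47 in both). Under TMM the split was 91 higher and 53 lower for the first contrast and 53 higher and 96 lower for the second, and DESeq2 gave 90 and 51, and 51 and 93. From 1.9-3.6 to 22.3 mo, 1 locus passed with TMM, with DESeq2 or among non-intact loci, and 0 to 1 with each testis left out.

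Of the 9 values for the 3 loci in testes, 5 changed sign somewhere, and none of the changed values passed the threshold. UID-4732 from 1.9-3.6 to 12.8 mo was 0.16 per kb of window, 0.10 without mouse 1110, 0.04 without 1111 and 0.30 without 900 (range -0.30 to 0.30 over the testes left out). From 12.8 to 22.3 mo it was -0.058 per kb of window and -0.20 without mouse 900 (range -0.20 to 0.40). From 1.9-3.6 to 22.3 mo it was -0.11 without mouse 1071 and -0.05 without 831 (range -0.11 to 0.26). UID-13740 from 12.8 to 22.3 mo was 0.13 with TMM, and UID-5948 from 1.9-3.6 to 22.3 mo was 0.0012 without mouse 1111 (range -0.16 to 0.0012). The cause was not tested.

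For UID-4732 outside testes, with the mouse as replicate block, female lungs against brains kept the difference of 0.73 and missed the threshold (exact sign-flip test, adjusted p = 0.0625), and the block changed no other call. Each library left out gave 0.65 to 0.89, and 10 of these 18 settings missed the threshold. The share of L1 reads gave 0.064. Ovaries against female lungs passed with a pseudocount of 0.1 (0.52), as a share of L1 reads (1.11) and without the ovary of mouse 1540, in a range of 0.78 to 1.20. Male lungs against brains passed as a share of L1 reads (-3.50), ranged from -1.93 to -0.91 with a library left out, and were 1.49 at 7.6 mo only. Total L1 reads per M mapped reads, the base of that share, were 3893 to 5839 in male lungs and 805 to 1354 in male brains. Male lungs against livers were -0.41 at 12.8 mo only and 0.65 to 1.67 with a library left out. Depth limits what is seen outside testes, where 3 reads are up to 0.0592 FPKM.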
